A study of Mus musculus with 12 samples.

Results

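The genes described here are 6 transcription factors of the eye field and neural retina: Rax, Six3, Six6, Lhx2, Nr2e1 and Crx. They are 6 of the 19057 genes that the platform annotation names on the array. All probes annotated with these symbols were taken, 10 of the 45281 probes. Rax and Six3 have 3 probes each and the other genes 1 each. A probe was tested if it was detected (a detection p, set by the array's negative controls, below 0.05) on at least 3 of the 12 arrays. Of the 10 probes 9 were tested, as were 24978 probes in all. The Six6 probe was not, so 5 of the 6 genes have a test.

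Eye field genes are switched on in the anterior neural plate and set apart the cells that form the optic vesicles. Rax is a paired-type homeodomain protein without which mouse eyes do not form, and Six3 and Six6 are paralogous homeodomain proteins of the sine oculis family. Six3 acts in the forebrain, the retina and the lens placode. Lhx2 is a LIM homeodomain protein needed in mice for the vesicle to become a cup, Nr2e1 (also called Tlx) is an orphan nuclear receptor that maintains neural progenitors, and Crx is a paired-type homeodomain protein of photoreceptor precursors. Bmp4 is a secreted growth factor made by the distal vesicle.

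The samples came from mouse embryos of a mixed C57BL6 and FVB background at embryonic stage E10.5. Laser microdissection of 10 µm sections took either the distal optic vesicle (prospective retina) or the surface ectoderm over it (prospective lens). Wild-type (WT) embryos were compared with embryos whose Bmp4 gene had been deleted in the optic vesicle (KO), with 3 arrays in each of the 4 groups. The Cre driver and the allele are not given in the sources used here, and neither is it given whether the 3 arrays of a group came from separate embryos or from pooled RNA, so p-values may measure technical spread only.

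Each array detected 45.0% to 46.7% of its probes, raw medians ran from 85.7 to 123 intensity units, and replicates of a group correlated at 0.919 to 0.956 across probes. Each member value rested on 18 to 60 beads (median 39), with a median bead standard error of 3.34% of the intensity. The brighter Bmp4 probe read 8.22 to 8.30 in WT vesicle and 4.27 to 5.18 in KO vesicle (limma adjusted p = 0.000152), where it was detected on 1 of 3 arrays. The dimmer Bmp4 probe differed by -1.12 in vesicle without passing (limma adjusted p = 0.48). In ectoderm the brighter probe read lower in KO, by -1.10, and the dimmer one higher, by 1.23 (limma adjusted p = 0.181 and 0.254), the latter at 7.11 on KO replicate 1, 4.78 and 4.58 on the others and not detected in WT. The position of the 2 probes relative to the deletion is not given. WT vesicle arrays detected 4 of 15 surface ectoderm and lens markers and WT ectoderm arrays 13 to 15, and the summed intensity of the 15 was 784 to 870 and 9930 to 12000. Values below are normalised log2 intensities, and differences are on the same log2 scale.

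Upstream sequence is shown for the Six3 and Six6 pair, paralogues that differed in whether they were detected at all, and for Crx, the member that differed between KO and WT vesicle. The promoter table, taken from RefSeq on build GRCm38.p6, matched 5 of the 6 genes. The 250 bases before each start are given 5′ to 3′. For Six3 that start lies inside the gene's span of 85613608 to 85626191. The Six6 and Crx stretches adjoin the spans of their genes. Capitals mark TTGATTGGCAG in Six3 and Six6, the longest run both stretches share, and TAATCC or its reverse complement GGATTA in Crx, the core motif bound by the Otx and Crx homeodomains.
Six3 (chr17:85620584-85620833, plus strand): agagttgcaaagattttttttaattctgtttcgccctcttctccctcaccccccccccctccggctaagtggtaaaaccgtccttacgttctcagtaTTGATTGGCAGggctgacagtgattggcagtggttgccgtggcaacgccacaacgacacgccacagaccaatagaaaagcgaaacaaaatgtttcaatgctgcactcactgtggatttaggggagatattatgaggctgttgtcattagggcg
Six6 (chr12:72939632-72939881, plus strand): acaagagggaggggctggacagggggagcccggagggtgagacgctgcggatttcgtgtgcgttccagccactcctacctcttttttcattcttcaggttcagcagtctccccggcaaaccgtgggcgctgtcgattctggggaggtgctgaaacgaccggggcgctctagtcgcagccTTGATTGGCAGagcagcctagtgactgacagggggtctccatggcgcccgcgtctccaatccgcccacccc
Crx (chr7:15879956-15880205, minus strand): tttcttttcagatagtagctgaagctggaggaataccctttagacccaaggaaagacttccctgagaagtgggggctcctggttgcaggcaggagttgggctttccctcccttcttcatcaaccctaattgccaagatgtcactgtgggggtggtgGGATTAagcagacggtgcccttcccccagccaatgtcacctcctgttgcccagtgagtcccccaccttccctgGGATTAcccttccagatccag
TTGATTGGCAG (11 bases) occurs 1 time in each of the Six3 and Six6 stretches, ending 142 and 60 bases before the start. On either strand it is in 0.0335% of the 32851 promoters of the table, a share to be read knowing that the run was picked from the 2 sequences. It overlaps the CCAAT box, here in reverse as ATTGG, which by itself is in 33.8% of promoters, with 3 matches in Six3 and 2 in Six6. TAATCC occurs 2 times upstream of Crx, on either strand, against 6.25% of promoters with at least 1 match and 0.295% with 2 or more. It has 0 matches upstream of Six3, Six6, Lhx2 and Nr2e1. These are letter matches, not measured binding.

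In WT embryos Rax, Lhx2, Nr2e1 and Crx were higher in the vesicle than in the ectoderm, and no Six3 probe passed. Rax was 15.4-fold higher by its brightest probe, Nr2e1 15.4-fold and Lhx2 12.4-fold, while Crx was at least 4.48-fold higher. In WT ectoderm Rax probe 1 and Nr2e1 were detected on 2 of 3 arrays, Lhx2 on 1 and Crx on 0, so these folds rest partly on readings at background. Crx and Rax probe 3 met the detection filter only through WT vesicle, the group where they are brightest. Six3 had differences of -0.74 to -0.15, and Six6 was at background in both tissues. Of the 9 probes 6 passed, all higher in vesicle, where 5.76% of all tested probes passed, 2.53% as higher and 3.22% as lower. The vesicle arrays lay wholly above the ectoderm arrays for 6 probes and wholly below for 2, against 13.6% and 11.2% of all probes. Probes of a gene are not separate observations.

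**Figure D1:**
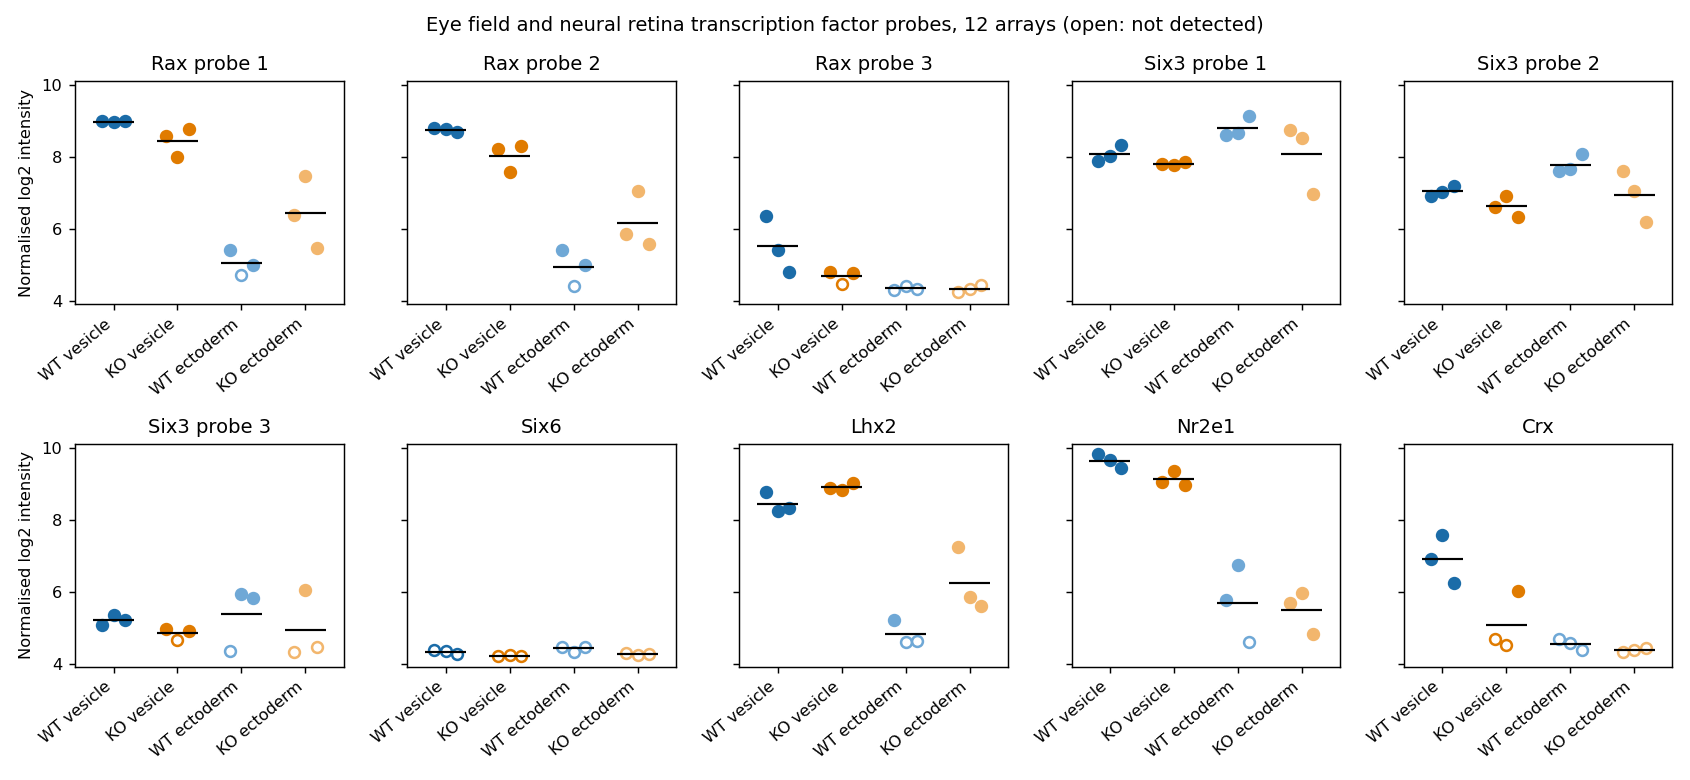
Normalised log2 intensity (vertical axis) of the 10 probes on the 12 arrays, by group; each point is an array, the line is the group mean and open points are arrays on which the probe was not detected. Rax probes 1 and 2, Lhx2 and Nr2e1 stand higher in vesicle than in ectoderm in both genotypes, and Six6 is open throughout.

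Rax (Entrez 19434, chromosome 18, 65934639 to 65939089 on GRCm38.p6) is measured by probes numbered here by brightness. Probe 1 (ILMN_2753549) read 9.01, 8.98 and 9.002 on WT vesicle replicates 1 to 3 and 5.42, 4.74 and 5.01 on WT ectoderm. All vesicle arrays stood above all ectoderm arrays, and the spread between the WT vesicle arrays was 0.01 (SD, n = 3). The difference was 3.94 (95% interval 3.03 to 4.85, limma adjusted p = 3.5e-05), and it was 3.93 within slide 1 and 3.99 within slide 2, the 2 slides that carried the arrays. Within slides each arm holds 1 or 2 arrays: vesicle genotypes are 1 array against 1 on slide 1, and ectoderm genotypes 1 against 1 on slide 2. Probe 2 (ILMN_2753555), designed to the same RefSeq transcript, gave 3.82 (limma adjusted p = 3.01e-05), and its values followed probe 1 over the 12 arrays with a Pearson r of 0.994. Probe 3 (ILMN_2556389) is annotated to a cDNA clone and was dim: 6.37, 5.42 and 4.81 in WT vesicle and not detected on any ectoderm array. Its WT vesicle mean was at least 1.72-fold higher than WT ectoderm (limma adjusted p = 0.0337), a call lost without WT vesicle replicate 1 (0.08) and without WT vesicle replicate 2 or WT ectoderm replicate 1, 2 or 3 (0.0709 to 0.096).

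Lhx2 (Entrez 16870, chromosome 2, 38339271 to 38369737) read 8.77, 8.26 and 8.34 in WT vesicle and 5.23, 4.605 and 4.65 in WT ectoderm, where 1 of 3 arrays detected it. The groups did not overlap, and the difference was 3.63 (95% interval 2.78 to 4.48, limma adjusted p = 4.19e-05), with 3.85 and 3.65 within slides 1 and 2. Nr2e1 (Entrez 21907, chromosome 10, 42561963 to 42583590) read 9.84, 9.66 and 9.45 in WT vesicle. In WT ectoderm it read 5.78, 6.75 and 4.602, the widest spread of any member in that group (SD 1.07, n = 3). Even its highest ectoderm array lay below every vesicle array, and the difference was 3.94 (95% interval 2.99 to 4.89, limma adjusted p = 5.7e-05), with 3.58 and 4.96 within slides 1 and 2.

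Crx (Entrez 12951, chromosome 7, 15865947 to 15879955) was detected on all 3 WT vesicle arrays, at 6.92, 7.59 and 6.26, although photoreceptors form only later in development. It was not detected on any WT ectoderm array (4.70, 4.59 and 4.40), which gave limma adjusted p = 0.00251 for the fitted difference of 2.36, which is no measured size. Within slides 1 and 2 it was 2.28 and 2.52. The bound of 4.48-fold replaces the undetected ectoderm values by the dimmest signal called detected on each array, where that is the higher.

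Six3 (Entrez 20473, chromosome 17, 85613608 to 85626191) gave no call between the tissues. Its probe 1 (ILMN_2983735) read 7.90, 8.04 and 8.33 in WT vesicle and 8.64, 8.69 and 9.17 in WT ectoderm. Here the ectoderm arrays were the higher ones, without overlap, but the difference of -0.74 (95% interval -1.52 to 0.04) did not pass (limma adjusted p = 0.305). Probe 2 (ILMN_1235642) gave -0.74 as well (limma adjusted p = 0.294), and the dim probe 3 (ILMN_2764616) gave -0.15 (95% interval -1.15 to 0.84). Probe 3 read 4.35, 5.96 and 5.83 on the WT ectoderm arrays, so its own spread was wide. Over the 12 arrays probes 1 and 2 correlated at 0.928 and probes 1 and 3 at 0.433.

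The Six6 probe (ILMN_2594461; Entrez 20476, chromosome 12, 72939882 to 72944899) was detected on 0 of 12 arrays. Its values ran from 4.21 to 4.49, and the highest stood in WT ectoderm. No fold is given for a probe at background in every group, and whether this probe can read the Six6 transcript was not tested.

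Between KO and WT vesicle Crx was the member with a call. It fell in KO vesicle, passing by a small margin, to readings that were at background on 2 of 3 KO arrays, so the fitted difference is no exact fold. Crx met the detection filter only through WT vesicle, its brighter group, where 3 of 3 arrays detected it. The call thus depends on that filter, and with no filter Crx did not pass (limma adjusted p = 0.127). Rax, Six3 and Nr2e1 stood somewhat lower and Lhx2 somewhat higher in KO vesicle, all without passing. The passing probe was 1 of 9, where 1.17% of all probes passed, 0.681% as higher and 0.488% as lower. All KO arrays lay below all WT arrays for 6 of the 9 probes and above them for 1, which 9.89% and 9.12% of all probes showed. The median difference of the 9 probes was -0.52, against -0.0052 over all probes.

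Crx read 4.70, 4.53 and 6.02 on KO vesicle replicates 1 to 3, against 6.92, 7.59 and 6.26 in WT. Replicate 3 was the only KO array that detected it, and it stood just below the lowest WT array. The difference was -1.84 (95% interval -2.72 to -0.96, limma adjusted p = 0.0452). Within slide 1 it was -2.39 and within slide 2 -1.56. The call was lost in 11 of 18 alternatives, with values of -2.39 to -0.84 and adjusted p from 0.00923 to 0.441. Without KO replicate 1 or 2 or WT replicate 1 or 2 it no longer passed (limma adjusted p = 0.194, 0.204, 0.12 and 0.165), and without KO replicate 3 it was -2.30 (limma adjusted p = 0.00923). In the same arrays Otx2, a homeobox gene known to activate Crx in the mouse retina, rose from 8.83 ± 0.16 to 10.47 ± 0.12 (SD, n = 3; limma adjusted p = 0.000317).

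**Figure D2:**
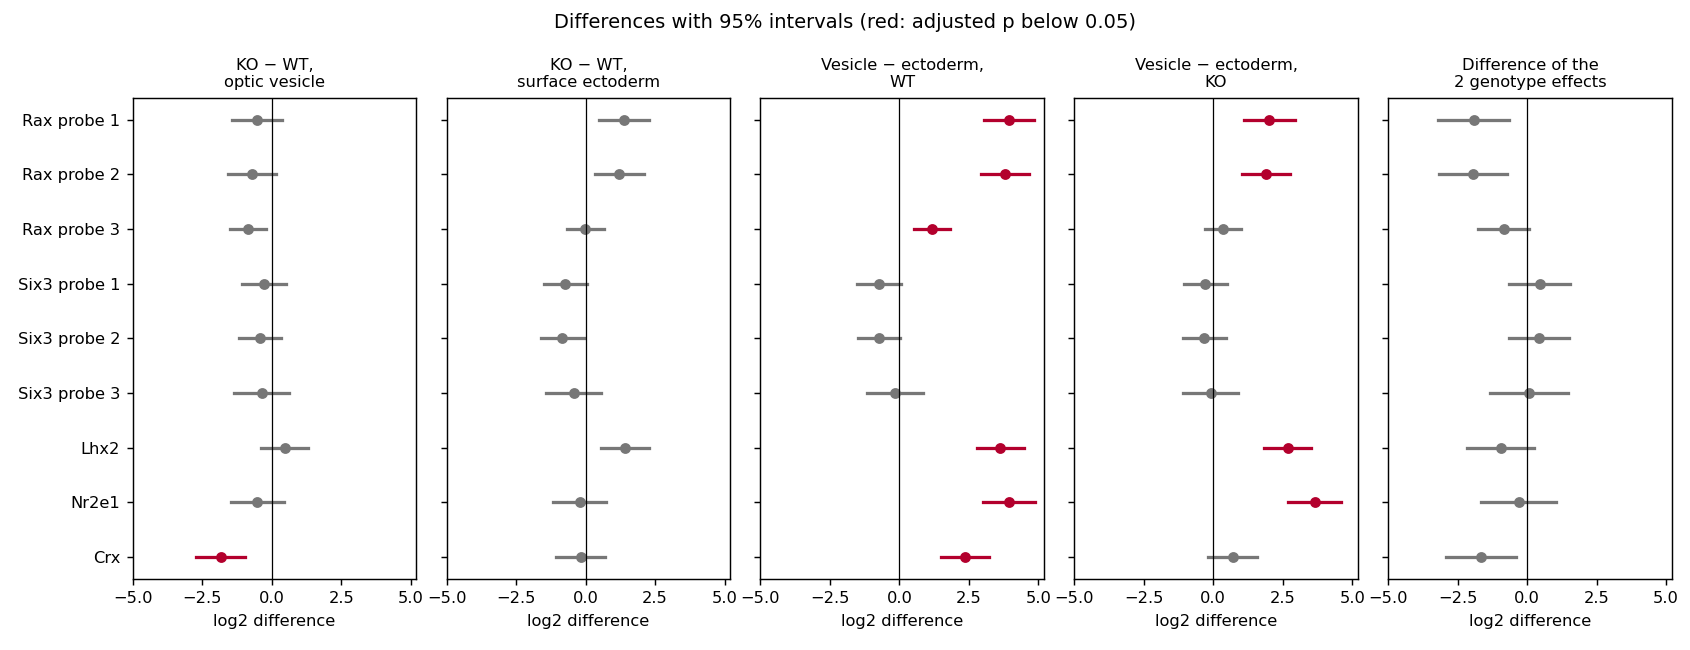
Log2 difference (horizontal axis) of the 9 tested probes in the 5 comparisons, with 95% intervals; red marks an adjusted p below 0.05. Crx is the one red point for KO against WT vesicle, and 0 of 9 passed for KO against WT ectoderm. Crx and Rax probe 3 were at background on all 6 ectoderm arrays, so their points in the panels that use ectoderm are no measured sizes.

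Rax probe 1 read 8.60, 8.01 and 8.80 in KO vesicle, below all 3 WT arrays, with replicate 2 the lowest. The difference of -0.53 (95% interval -1.44 to 0.38) did not pass (limma adjusted p = 0.779), and probe 2 gave -0.71 (limma adjusted p = 0.614). Within slide 1, which holds KO replicate 2, probe 2 differed by -1.21 and within slide 2 by -0.46. For probe 1 the KO arrays had an SD of 0.41 (n = 3) and the WT arrays one of 0.01, and for probe 2 the SDs were 0.39 and 0.07. Probe 3 read 4.82, 4.49 and 4.78 in KO vesicle and differed by -0.84 without passing (limma adjusted p = 0.308).

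Nr2e1 read 9.06, 9.37 and 8.98 in KO vesicle, just under the 3 WT arrays, a difference of -0.52 (95% interval -1.47 to 0.44, limma adjusted p = 0.803). Six3 probe 1 read 7.81, 7.78 and 7.87 in KO vesicle, the tightest of its 4 groups (SD 0.05, n = 3). It differed by -0.27 (95% interval -1.05 to 0.51), probe 2 by -0.42 and probe 3 by -0.36, all short of the threshold (limma adjusted p = 0.907, 0.803 and 0.896). Lhx2 went the other way, at 8.90, 8.85 and 9.04 in KO vesicle, a little above each WT array. Its difference was 0.47 (95% interval -0.38 to 1.32, limma adjusted p = 0.792), so both a fall and a rise lie within the interval.

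Other genes of the retinal programme moved on these same arrays. Of 12 tested eye field and retinal progenitor genes outside the members, 4 fell in KO vesicle, 2 rose and 6 did not pass, with a median of -0.69. Among all probes 0.488% passed as lower and 0.681% as higher, shares that also stand beside the marker counts below. The SoxB factor Sox2 fell by 2.30 and the growth factor gene Fgf15 by 3.27. Pax6, a paired homeodomain regulator of the eye, stood at 0.07 without passing (limma adjusted p = 0.915). Pigment epithelium markers detected per array went from 8 or 9 of 12 in WT vesicle to 11 or 12 in KO, and their summed intensity from 1980 to 2350 up to 6070 to 6240. Of 11 tested pigment markers 5 rose, 0 fell and 6 did not pass. Tyr and Mlana, at background on every WT vesicle array, were each detected on at least 1 KO array. Surface ectoderm and lens markers detected went from 4 to between 8 and 10 of 15 per array, with sums of 784 to 870 and 1260 to 1490, and Pitx3, Foxe3 and Cryaa at background in both. Erythroid marker sums also moved, from 2070 to 2170 in WT vesicle to 4810 to 5110 in KO. Mesenchyme and neural crest sums went from 345 to 458 up to 527 to 830, and endothelial sums from 261 to 291 up to 317 to 345. In the mesenchyme list Alx4 read 4.31, 4.42 and 5.33 in WT and 8.51, 6.79 and 7.68 in KO. Col1a2 read 6.91, 6.30 and 7.33 in WT and 6.72, 6.74 and 4.93 in KO. Of the tested markers 1 of 14 surface ectoderm and lens, 4 of 6 erythroid, 1 of 8 mesenchyme and 0 of 7 endothelial ones rose, and 0 fell. The part of all these markers in the Crx difference was not tested. In dissected tissue fewer cells of a type and less RNA per cell cannot be told apart.

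In the ectoderm over the KO vesicle, Rax and Lhx2 read higher than in WT ectoderm, and Six3 read lower, but 0 of the 9 probes passed, where 3.25% of all probes did, 1.52% as higher and 1.73% as lower. Of the 9 probes 4 had an unadjusted p below 0.05, against 3914 of all 24978. All KO arrays lay above all WT arrays for 3 member probes, Rax probes 1 and 2 and Lhx2, and below them for 1, Six3 probe 2. Among all probes 8.27% stood wholly above and 8.93% wholly below.

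Lhx2 read 7.27, 5.87 and 5.61 on KO ectoderm replicates 1 to 3, and was detected on 3 of 3 arrays, against 1 of 3 in WT. Replicate 1 stood well above the others, yet below every vesicle array. The difference was 1.42 (95% interval 0.57 to 2.27, limma adjusted p = 0.0704), 1.52 within slide 1 and 1.22 within slide 2. Without KO replicate 1 it was 0.91, without KO replicate 3 it was 1.74 and passed (limma adjusted p = 0.0373), and over its 18 alternatives adjusted p ran from 0.0373 to 0.551.

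Rax probe 1 read 6.396, 7.48 and 5.47 in KO ectoderm. Here replicate 2 was the highest and replicate 3 was close to the brightest WT array at 5.42. The difference was 1.39 (95% interval 0.49 to 2.30, limma adjusted p = 0.101), and probe 2 gave 1.22 (limma adjusted p = 0.133). Within slide 1 probe 1 differed by 0.85 and within slide 2 by 2.47. Without KO replicate 2 it was 0.88, and without KO replicate 3 it was 1.88 and passed (limma adjusted p = 0.0166), the range over 18 alternatives being 0.0166 to 0.706. Rax probe 3 was not detected on any ectoderm array of either genotype.

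The replicate that read highest for Lhx2 was not the one that read highest for Rax. Of the 12 tested eye field and retinal progenitor genes outside the members, 4 rose in KO ectoderm, 4 fell (Sox2, Pax6, Sfrp2 and Ccnd1) and 4 did not pass, with a median of -0.34. Among all probes 1.52% passed as higher and 1.73% as lower. Among those that rose, Otx2 was even over the KO ectoderm arrays, at 8.11, 8.46 and 8.42, against 5.96, 6.14 and 6.12 in WT, and rose by 2.25 (limma adjusted p = 1.37e-05). Mab21l2, an eye morphogenesis gene, read 8.22, 6.80 and 7.22 in KO ectoderm and rose by 2.06 (limma adjusted p = 0.00247). Fgf15, bright in WT vesicle, was detected on 1 of 3 KO ectoderm arrays and differed by -0.25 without passing (limma adjusted p = 0.793). Nr2e1, also bright in the vesicle, differed by -0.22 between KO and WT ectoderm without passing (limma adjusted p = 0.883), and Crx was not detected on any of the 6 ectoderm arrays.

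**Figure D3:**
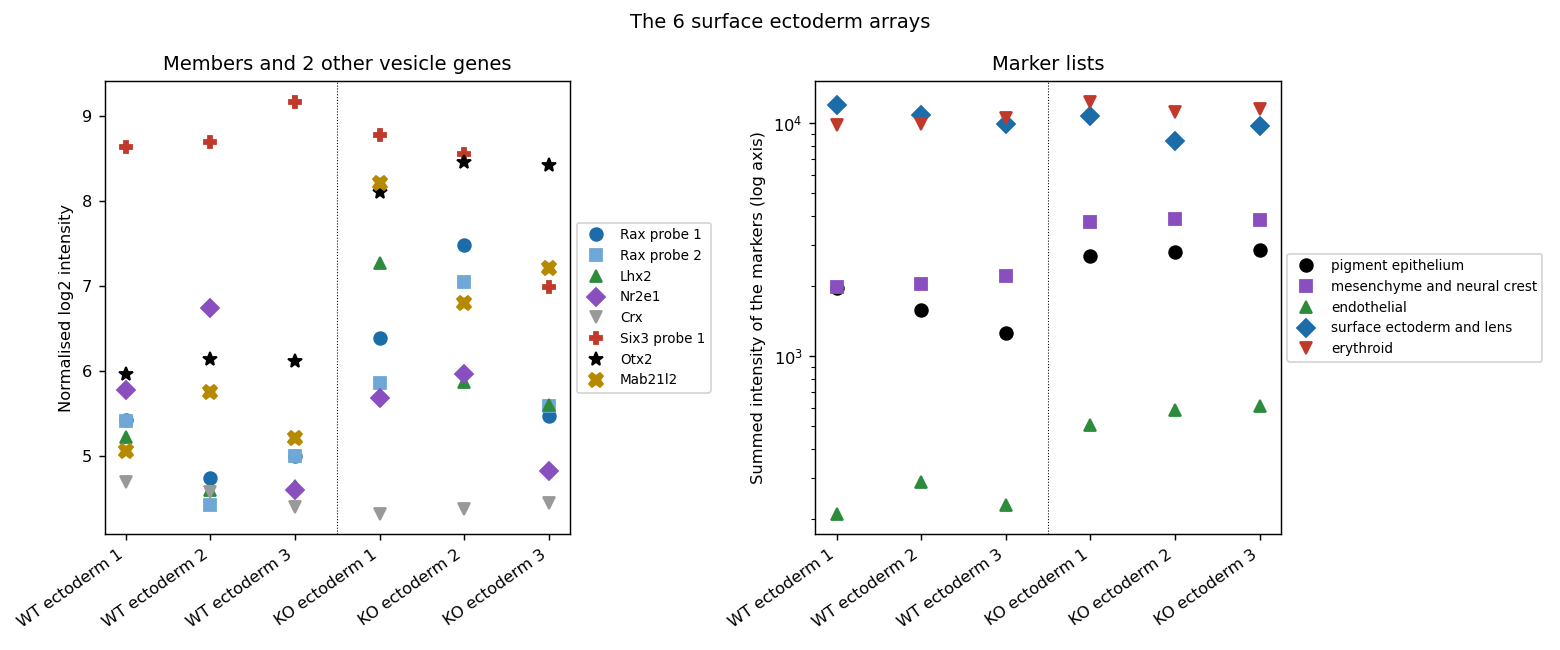
Left, normalised log2 intensity of member probes, Otx2 and Mab21l2 on the 6 surface ectoderm arrays; right, summed intensity of 5 marker lists on the same arrays (log axis). Rax, Lhx2, Otx2 and Mab21l2 read higher in KO, and Nr2e1 and Crx do not. The pigment, mesenchyme, endothelial and erythroid sums are higher on all 3 KO arrays, and the surface ectoderm and lens sums overlap between genotypes.

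Markers of the ectoderm itself and of neighbouring tissues moved on the same ectoderm arrays. Surface ectoderm and lens markers detected went from 13 to 15 of 15 per WT array to 12 per KO array. Their sums were 9930 to 12000 in WT and 8410 to 10700 in KO, with Pitx3, Foxe3 and Cryaa at background on every KO array. Of 14 tested markers of this list 3 rose, 4 fell and 7 did not pass. Pigment epithelium markers detected went from 4 to 6 of 12 per WT array to 7 to 10 per KO array, and their sum from 1260 to 1960 up to 2700 to 2860, with Tyr and Tyrp1 at background on every KO array. Of 11 tested markers 5 rose, 0 fell and 6 did not pass, where 1.52% of all probes rose. Otx1, listed below also as a Crx partner, was the brightest of them in KO and weighs most in the linear sum. It read 7.87, 8.52 and 8.23 in WT and 10.42, 10.45 and 9.89 in KO. Mitf read 9.79, 9.12 and 8.16 in WT and 7.49, 8.71 and 8.88 in KO. Mesenchyme and neural crest sums went from 1980 to 2210 up to 3760 to 3890 (8 of 11 markers per WT array, 8 to 10 per KO array), with Dcn at background in KO. Of the 8 tested markers of this list 4 rose in KO, 1 fell (Pdgfra) and 3 did not pass, beside 1.52% of all probes as higher and 1.73% as lower. Pdgfra read 10.21, 10.23 and 10.26 on the WT arrays and 7.63, 7.85 and 7.73 on the KO arrays. Endothelial sums went from 210 to 287 up to 506 to 612 (1 to 3 of 9 markers and 6 to 7), with Tek and Tie1 at background in KO. Erythroid sums went from 9880 to 10600 up to 11200 to 12400. Of the tested markers 4 of 7 endothelial and 1 of 6 erythroid ones rose, and 0 fell. The part of all these markers in the Rax and Lhx2 values was not tested.

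Six3 probe 1 read 8.77, 8.55 and 6.99 in KO ectoderm, so replicate 3 stood apart from the other two. Its difference of -0.73 (95% interval -1.51 to 0.06) did not pass (limma adjusted p = 0.367). Probe 2 read 7.61, 7.07 and 6.20, again lowest in replicate 3, and differed by -0.83 (limma adjusted p = 0.27). Of 3 tested genes described as direct Six3 targets in the mouse, Pax6 fell by 0.98 and Sox2 by 2.04 in KO ectoderm. Among all probes 1.73% passed as lower there. Rspo2, a Wnt agonist not detected in WT ectoderm, did not pass in ectoderm. In vesicle Sox2 fell, where 0.488% of all probes passed as lower, and Pax6 and Rspo2 did not pass.

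In KO embryos too Nr2e1, Lhx2 and Rax were higher in vesicle than in ectoderm. Of the 9 probes 4 passed, all higher in vesicle, where 5.16% of all probes passed, 2.43% as higher and 2.73% as lower. The vesicle arrays lay wholly above the ectoderm arrays for 6 probes and wholly below for 0, against 11.6% and 9.52% of all probes. Rax probe 3 and Crx are among the 6, parted by undetected readings. Their lowest KO vesicle values were 4.49 and 4.53, and their highest KO ectoderm values 4.45 and 4.46. Nr2e1 was 12.5-fold higher in KO vesicle than in KO ectoderm (difference 3.64, limma adjusted p = 0.000151) and Lhx2 6.42-fold (2.68, limma adjusted p = 0.000761). Rax probe 1 differed by 2.02 (limma adjusted p = 0.0108) and probe 2 by 1.88 (limma adjusted p = 0.0122). Within slides 1 and 2 probe 1 differed by 2.07 and 1.22. Without KO vesicle replicate 3, 2 of the 9 passed, both Rax probes dropping out at 1.86 and 1.75 (limma adjusted p = 0.0585 and 0.0641), and without replicate 1 probe 2 did not pass (limma adjusted p = 0.0569). Crx was detected on 1 of 3 KO vesicle and 0 of 3 KO ectoderm arrays and was not called (limma adjusted p = 0.428), and no fold is given for it. Six3 probe 1 differed by -0.28 (95% interval -1.07 to 0.50).

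The genotype effects in the 2 tissues were then set against each other. For Rax all KO vesicle arrays lay below WT and all KO ectoderm arrays above WT, on probes 1 and 2 alike. The difference of the effects was -1.92 for probe 1 (95% interval -3.20 to -0.64, limma adjusted p = 0.194) and -1.93 for probe 2 (limma adjusted p = 0.169), short of the threshold, which 0 of the 9 passed and 0.849% of all probes did, 0.516% as higher and 0.332% as lower. Unadjusted p was 0.00614 and 0.00424. Within slide 1 the value for probe 1 was -1.85 and within slide 2 -2.77, and without KO ectoderm replicate 3 it was -2.41 and passed (limma adjusted p = 0.046). For Lhx2 the difference of effects was -0.94 (limma adjusted p = 0.578). None is given for Crx, which was at background in both ectoderm groups.

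**Figure D4:**
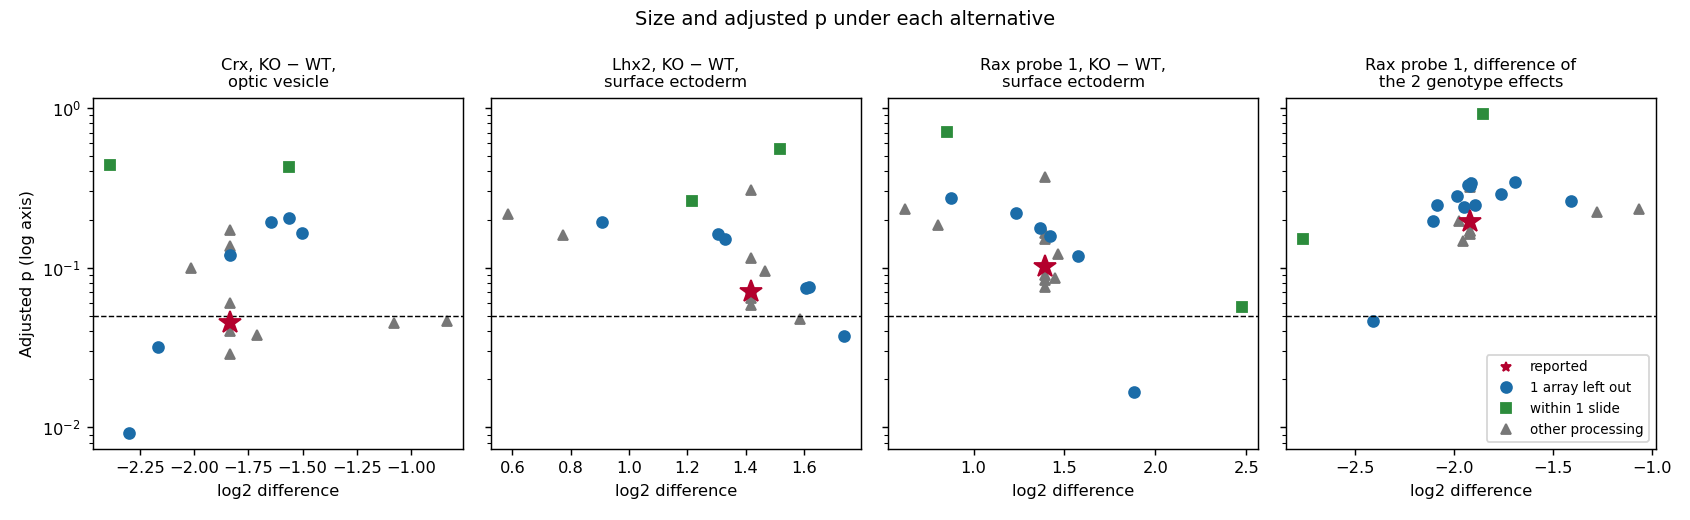
Log2 difference (horizontal axis) against adjusted p (log axis) for 4 results under each processing alternative; the star is the reported value, circles leave out 1 array, squares use 1 slide, triangles change another setting and the dashed line is 0.05. Crx lies on both sides of the line, and the Rax and Lhx2 results cross it mainly when a single array is left out.

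In order of level, Rax probes 1 and 2 ran WT vesicle, KO vesicle, KO ectoderm, WT ectoderm, with no overlap between neighbours. Lhx2 ran KO vesicle, WT vesicle, KO ectoderm, WT ectoderm, also without overlap. Nr2e1 ran WT vesicle, KO vesicle, then WT and KO ectoderm, which overlapped. For Crx WT vesicle came first, and the other groups, mostly at background, were not ordered. For Six3 probe 1 WT ectoderm came first and KO vesicle last, and neighbouring groups overlapped except WT and KO vesicle. These orders are a description. For Rax, Lhx2, Nr2e1 and Six3 the steps between genotypes did not pass in either tissue. Among all probes the KO arrays stood wholly above WT for 9.12% in vesicle and 8.27% in ectoderm, and wholly below for 9.89% and 8.93%. A share for a whole order was not computed.

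Genes whose level followed each member most closely over the 12 arrays were listed as a description, since the arrays share the contrast between tissues. For Rax probe 1 these were Cntfr, a ciliary neurotrophic factor receptor (Pearson r 0.977), Rtn1 (0.967) and Adgrv1 (0.96). Cntfr averaged 7.60 in WT vesicle, 7.31 in KO vesicle, 4.72 in WT ectoderm and 5.73 in KO ectoderm. For Lhx2 they were Pdzrn3, 1500009L16Rik and Dnajc12 (0.96, 0.959 and 0.958). For Nr2e1 they were Pax2 (0.967), a paired box gene of the optic stalk, Wfdc1 (0.96) and Gldc (0.958). For Crx they were Wfdc1 (0.954, by another probe), Dtx4 (0.947) and 6330415B21Rik (0.946). Six3 had the lowest best match, with Mycbp, Nbeal1 and Carmil1 at 0.893, 0.89 and 0.886. Between members, Lhx2 and Nr2e1 correlated at 0.876, and Rax probe 1 correlated at 0.924 with Lhx2, 0.886 with Nr2e1 and 0.704 with Crx.

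Genes related to Six3 or its partners were other sine oculis family members, Eya, Dach and Groucho (Tle) genes and geminin, 14 of them tested. Of these 0 passed in vesicle, where 1.17% of all probes did, and 1 in ectoderm, where 3.25% did. In vesicle 4 of the 14 had an unadjusted limma p below 0.05, as had 2557 of all 24978 probes. The coactivator Eya2 was not detected on the WT ectoderm arrays and was at least 2.56-fold higher in KO ectoderm (limma adjusted p = 0.013). Eya1 was lower in WT vesicle than in WT ectoderm, by -1.75 (limma adjusted p = 0.0029), and Dach1, a corepressor, was higher by 1.59 (limma adjusted p = 0.0113). Of 17 Crx partners and photoreceptor genes 15 are on the array and 6 were tested. Otx2 rose in KO vesicle, and Otx1 and Otx2 rose in KO ectoderm, Otx1 by 2.05. These are 1 and 2 of the 6, beside 0.681% and 1.52% of all probes that passed as higher. Neurod1, the opsin gene Opn1sw, Sag and Rom1 had differences of -0.05, -0.00078, 0.0025 and 0.90 in vesicle, none of these 4 passing. Neurod1 was detected on 1 array of each vesicle group.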

How the data were processed

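The authors deposited, per the file headers, a scanner table from GenomeStudio (named in the submitters' processing notes, version not given in the sources used here). For every array it lists raw bead-averaged intensity values (linear, neither background-subtracted nor normalised) with their bead standard errors. The authors' software also deposited a detection p-value per probe, from the negative controls, and a bead number as another column. Per the labels' protocols, 15 ng of RNA was amplified and biotin labelled. A deposited matrix of processed intensity values served as an alternative. Each of its columns ranked probes like its own array (Spearman rho 1, at most 0.867 with others). Its medians lie between 9.40 and 9.42 on every array and its values start at -10.3; its scale is linear, its centring is known only from the medians, and its background options stay unknown.

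Intensities were normalised with neqc (limma 3.58.1, R 4.3.3; offset 16, quantile, log2) and fitted over all 24978 kept probes and 12 arrays with lmFit and eBayes (trend), without a block; adjusted p is Benjamini-Hochberg, two-sided, threshold 0.05. The method was tested on simulated data. In the platform annotation 34885 probes have 1 symbol, 18 several and 10378 none. Lists used each gene's brightest kept probe. Named genes are all members, up to 4 called genes per list with the lowest p, and the 3 genes most correlated with each member; other genes were chosen after their values were seen. Members and lists were chosen with earlier results of these data known. Same-numbered arrays had residual correlations of -0.04 to 0.01. Taken after centring on groups of 3 arrays, these values cannot exclude that same-numbered samples share embryos, and the numbers are not stated to mark this. Alternatives covered background, normalisation, filter, probe choice, slide, replicate number, array weights, arrays fitted and each array left out. The precision is limited by 3 arrays per group.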

Additional observations from a re-analysis of the deposited data

How the results depend on the processing

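The 45 member differences were recomputed 830 times in all. Of these values 761 kept direction and side of the threshold, 37 lost it, 4 gained it and 28 changed sign. Most of the 761 belong to differences that had not passed and stayed so. All 37 losses fall on differences that had passed. Among them are Crx in KO vesicle (11 of 18 alternatives) and Rax probe 3 between WT tissues (9 of 16). No sign change concerned a difference that passed. The cause was not tested, beyond fewer arrays within a slide or with 1 left out.

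Replicate number, which is not stated to mark shared embryos, was also used as a block. That fit gave 168 called probes in KO vesicle, 505 in KO ectoderm and 92 for the difference of effects. It called 0 member probes in vesicle, with Crx at limma adjusted p = 0.173. The reported counts are 292, 811 and 212, with 1438 between WT and 1290 between KO tissues. No other member call changed under the block.

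Counts of called probes in KO vesicle, KO ectoderm, WT tissues, KO tissues and the difference of effects were 0, 15, 61, 38 and 0 within slide 1, and 57, 78, 410, 406 and 1 within slide 2, on arms of 1 or 2 arrays. Array weights gave 519 in vesicle and 482 in ectoderm. No filter gave 523 in ectoderm and 106 for the difference. Fits of the compared arrays alone gave 253 in ectoderm and 755 between KO tissues. With 1 array left out the counts ran from 151 to 196 in vesicle, 878 to 1194 between WT tissues, 856 to 1159 between KO tissues and 90 to 197 for the difference.

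The 1 member called in vesicle became 0 with the authors' matrix, no filter, a slide block, either slide and the compared arrays alone, and ran from 0 to 1 with an array left out. In ectoderm the authors' matrix called 1 (Lhx2, 1.59, adjusted p = 0.0478), and leaving out an array gave 0 to 2, the 2 being Rax probe 1 and Lhx2. The 6 called between WT tissues became 0 within slide 1. The 4 called between KO tissues became 0 within slide 1, 2 within slide 2, 2 with the compared arrays alone and 2 to 4 with an array left out. The difference of effects gave 0 to 1.

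Signs turned for small differences. Within slide 1, Six3 probe 2 stood at 0.0143 in vesicle and 0.027 between KO tissues, Six3 probe 3 at 0.28 between KO tissues and Nr2e1 at 0.53 for the difference of effects. Within slide 2, Rax probe 3 stood at 0.0194, Six3 probe 3 at 0.23 and Nr2e1 at 1.37 in ectoderm, and Six3 probe 3 at -0.58 for the difference of effects. The authors' matrix put Six3 probe 3 at 0.16 between WT and 0.34 between KO tissues. With an array left out, Rax probe 3 ran from -0.0485 to 0.0405 and Nr2e1 from -0.77 to 0.30 in ectoderm, Six3 probe 3 from -0.67 to 0.14 between WT tissues, and Six3 probes 1, 2 and 3 from -0.84 to 0.0501, -0.70 to 0.0036 and -0.41 to 0.46 between KO tissues. For the difference of effects Six3 probe 1 ran from -0.10 to 0.79, Six3 probe 3 from -0.25 to 0.61 and Nr2e1 from -0.82 to 0.25. Low signal limits Rax probe 3, Six3 probe 3, Six6 and Crx, which were detected on 5, 8, 0 and 4 of 12 arrays.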

Other observations

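Relatives of Lhx2 and Nr2e1 were also read. Of 14 tested LIM homeodomain and LIM cofactor genes, Lmo2, a LIM-only cofactor known from blood cells, rose in KO vesicle from 6.86 ± 0.71 to 9.39 ± 0.20 (SD, n = 3, limma adjusted p = 0.0239). The other 13 did not pass, where 1.17% of all probes did. Erythroid sums were also higher in KO than in WT vesicle. WT ectoderm had erythroid sums of 9880 to 10600 and Lmo2 at 5.36, 7.12 and 7.23. KO ectoderm had sums of 11200 to 12400 and Lmo2 at 8.83, 8.12 and 7.22. A link between Lmo2 and the erythroid sums was not tested. In KO ectoderm, where 3.25% of all probes passed, 2 of these 14 genes did. Lmo1, not detected on the WT ectoderm arrays, was at least 3.35-fold higher (limma adjusted p = 0.0382), and Isl1, a LIM homeodomain gene, fell from 6.17 ± 0.50 to 4.61 ± 0.33 (SD, n = 3; limma adjusted p = 0.00546), where 1 of 3 KO arrays detected it. Of 13 tested NR2 receptor and Nr2e1 corepressor genes, the deacetylase gene Hdac2 fell by 0.32 in KO vesicle (limma adjusted p = 0.031) and Bcl11a, a zinc finger corepressor, rose by 2.23 in KO ectoderm (limma adjusted p = 0.0152), 12 not passing in each. Those shares too stand beside 1.17% and 3.25% of all probes, and Bcl11a was detected on 1 of 3 WT ectoderm arrays. Isl1 was not detected in WT vesicle and was at least 2.66-fold higher in WT ectoderm (limma adjusted p = 0.00295).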
